A study of Caenorhabditis elegans with 2 samples.

Results

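The binding of PQM-1 was followed at the promoters of the genes that encode the translation factors and the aminoacyl-tRNA synthetases of the nematode Caenorhabditis elegans. The 70 genes were taken by name from the 19973 protein-coding genes on the nuclear chromosomes of the Ensembl annotation. They are the genes whose symbol begins with eif-, eef-, ife-, iff- or ifg-, and those made of 1 letter followed by ars-1 or ars-2. The rule uses names alone, but the group was proposed with earlier results of these data known. The names fit translation throughout with 1 exception of background knowledge: eif-4A3 encodes a relative of the helicase eIF4A that belongs to the exon junction complex in other animals.

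The source material was whole hermaphrodite late embryos of strain OP201, 2 h after synchronization by bleaching, and an antibody against GFP pulled down the sonicated chromatin. Cell types within the embryo cannot be told apart. The strain has the genotype unc-119(tm4063) III; wgIs201, and its transgene supplies PQM-1 with GFP and FLAG at the C-terminus. The study has 1 group of 2 biological replicates, and both carry the transgene and the unc-119 mutation. There was therefore no comparison between groups, and the values below describe the translation genes beside all protein-coding genes, with no test.

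Translation begins when initiation factors place the ribosome and the initiator tRNA on the start codon of a messenger RNA. The multisubunit complex eIF3 organises the small ribosomal subunit in this step, eIF2 brings the initiator tRNA, eIF2B recharges eIF2, and eIF4E with eIF4G binds the cap. Elongation factors then deliver charged tRNAs and move the ribosome, and the synthetases charge each tRNA with its amino acid, in the cytosol or in mitochondria. PQM-1 is a zinc finger transcription factor known from work on worm ageing, and the sequence it has been associated with is TGATAAG.

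Each gene was given its strongest region, by the authors' signal value, with a summit from 1000 bp upstream to 200 bp downstream of an annotated transcript start. The pooled list held 27694 regions, that of replicate 1 held 28996 and that of replicate 2 held 23228, and 1241 pooled regions had a q-value, the authors' false discovery rate, of 0.01 or less. The authors' reproducible list equals the strongest pooled regions down to a signal of 82.03. The top set of a replicate means here its strongest regions, as many as the reproducible list holds. A gene with a region of the reproducible list in its promoter is called bound below. Signals are not scaled between lists, so they are compared only within a list. The promoter of pqm-1 itself held no region in any of the pooled and replicate lists.

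PQM-1 was bound at 8 of the 70 translation genes (11.4%, exact 95% interval 5.07 to 21.3), against 2.75% of all protein-coding genes. The bound genes were ears-2, the eIF3 subunit genes eif-3.E, eif-3.B and eif-3.C, the eIF5A gene iff-2, mars-1, eef-1G and eef-1A.1. Their regions were distinct from one another, though some also lay in the promoter of a further gene, as described below. Any region at all, however weak, was listed in the pooled list for 47 of the 70 (67.1%), against 41.1% of all genes. In the list of replicate 1 this held for 44 genes (62.9%), against 40.9% of all genes, and in that of replicate 2 for 47 (67.1%), against 37.2%. The strongest pooled signal had a median of 29.95 over the 70 genes and of 0 over all genes, with genes that lack a region set to 0. Among genes with a region the medians were 43.34 for translation genes and 31.77 for all genes. The intervals cover counting error only, and the depth of the libraries is unknown.

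**Figure D1:**
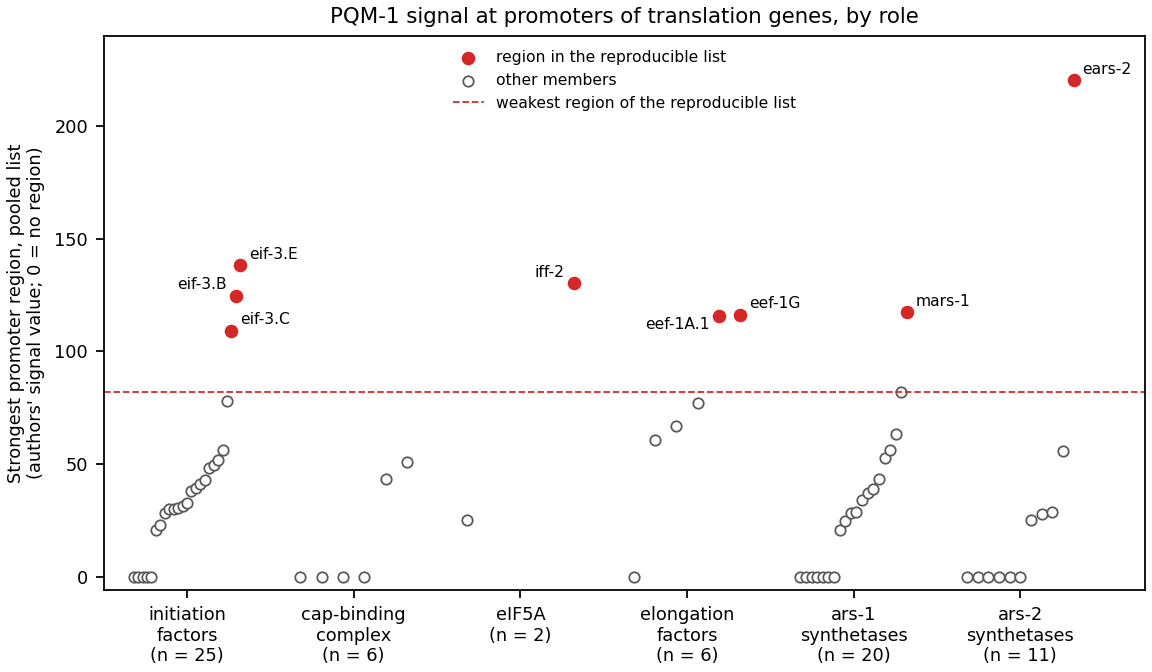
Authors' signal value of the strongest promoter region in the pooled list (vertical axis) for each of the 70 translation genes, grouped by role (horizontal axis). Each point is 1 gene, filled red where its region is in the reproducible list, and genes with no region stand at 0. The 8 bound genes lie between 109 and 220, above the dashed limit of 82.03.

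The replicates' own lists gave similar numbers. The top set of replicate 1 held promoter regions of 9 translation genes (12.9%), against 2.54% of all genes. That of replicate 2 held those of 10 (14.3%), against 2.67% of all genes. Both held for 8 of the translation genes (11.4%), against 1.65% of all genes. These 8 were 7 of the bound genes and kars-1, the gene of the lysyl-tRNA synthetase. The exception among the bound genes was eif-3.C.

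The strongest region belonged to ears-2, the gene of the mitochondrial glutamyl-tRNA synthetase. Its signal was 220.3 in the pooled list (rank 23), 94.57 in replicate 1 (rank 31) and 122.5 in replicate 2 (rank 32). Only 0.115% of all protein-coding genes had a region at least as strong. The region lay at chrIV:390360-390573 (ce11), with its summit 5 bp downstream of the start in the 5′ UTR of ears-2. It was also 97 bp from the start of uncp-18, which is transcribed in the other direction. The stretch just upstream of the ears-2 start, chrIV:390469-390559 on the minus strand, is shown because it lies between the starts of these neighbours, and its summit window holds none of the patterns searched. Sequences are RefSeq's for assembly WBcel235, on the gene's strand, 5′ to 3′:

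ears-2: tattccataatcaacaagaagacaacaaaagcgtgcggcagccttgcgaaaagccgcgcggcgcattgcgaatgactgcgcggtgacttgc

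Initiation factors counted 25 genes named eif-, of which 20 had a pooled region (80%) and 3 were bound (12%), against 41.1% and 2.75% of all genes. All 3 bound genes encode subunits of eIF3, for which 11 genes carry the name eif-3. The gene eif-3.E had a signal of 138.15 in the pooled list (rank 153), 38.52 in replicate 1 (rank 667) and 96.63 in replicate 2 (rank 80). For eif-3.B these were 124.63 (rank 209), 52.23 (rank 248) and 72.32 (rank 222). Replicate 1 thus placed eif-3.E at the end of its top set, whereas eif-3.B stood at a similar rank in each list. The region of eif-3.B, at chrII:14794923-14795352, lay between genes with its summit 266 bp upstream of the start, and no other gene shared it. Its window of 100 bp to each side of the summit, chrII:14795038-14795238 on the plus strand, is shown because it holds a 6-base string that recurs at other bound genes, TGCGTA, in capitals:

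eif-3.B: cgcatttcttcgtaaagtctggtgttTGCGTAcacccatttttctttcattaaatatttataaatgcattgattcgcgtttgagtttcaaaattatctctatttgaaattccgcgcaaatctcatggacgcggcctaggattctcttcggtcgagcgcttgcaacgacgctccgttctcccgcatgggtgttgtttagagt

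For eif-3.C the pooled signal was 109.26 (rank 312), with 38.00 in replicate 1 (rank 704) and 71.43 in replicate 2 (rank 228). The other bound subunit genes had their regions between genes, eif-3.C at chrI:9979684-9980113 with the summit 237 bp upstream and eif-3.E at chrI:10642257-10642686 with the summit 191 bp upstream. By pooled signal eif-3.C was the weakest of the bound genes and the only one outside the top set of replicate 1. A further subunit gene, eif-3.I, came next at 77.99 in the pooled list (rank 756), below the limit, with 29.36 in replicate 1 (rank 1564) and 53.76 in replicate 2 (rank 504). Unlike the bound ones, its pooled summit lay in an intron of the gene itself, 463 bp upstream of an annotated start inside the gene. In replicate 2 all 4 of these subunit genes were thus in the top set, against eif-3.B and eif-3.E alone in replicate 1. The remaining subunit genes were lower: eif-3.D had 56.08 in the pooled list, eif-3.K 39.52, eif-3.G 38.07, eif-3.J 29.98 and eif-3.H 20.77, and eif-3.F and eif-3.L had no region in any list. The gene of a further subunit of the complex, egl-45, has another kind of name and is not among the 70. It was looked up after the other values were seen and had a pooled signal of 22.96 (rank 20541).

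Of the 8 genes of eIF2 and eIF2B 0 were bound, against 2.75% of all genes, a share at which a set this small would mostly hold no bound gene. A pooled region was listed for 6 of them (75%), against 41.1% of all genes, with signals from 23.09 for eif-2Bbeta to 48.39 for eif-2Bgamma (rank 2875), and eif-2alpha and eif-2beta had none. The eif-2Bgamma summit was the only one among translation genes with a pooled region that lay within 200 bp of a gene of a small structural RNA. Other initiation factors ranged from 29.92 for eif-6, a factor of the large ribosomal subunit, to 51.74 for eif-4A3 (rank 2382). The gene eif-1.A, whose product takes part in finding the start codon, had 49.35 in the pooled list, and eif-1 had no region. The strongest eif-1.A regions of the replicates were different ones, with summits 309 bp apart at rank 19958 in replicate 1 and rank 1431 in replicate 2. For eif-4A3 the summits lay within 9 bp, at ranks 5559 and 4818.

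The cap-binding complex was represented by the 5 eIF4E genes ife-1 to ife-5 and the eIF4G gene ifg-1. Of these 6 genes 0 were bound, against 2.75% of all genes, and 2 had a pooled region (33.3%), against 41.1%, so neither count sets so small a group apart. Both regions were above the median of 31.77 over all genes with a region. For ife-4 the signal was 50.72 in the pooled list (rank 2528) and 42.03 in replicate 2 (rank 975), and replicate 1 listed no region. For ife-2 it was 43.39 in the pooled list, 14.90 in replicate 1 and 26.86 in replicate 2. The genes ife-1 and ife-5 had no region in any list, and ife-3 and ifg-1 had weak ones in replicate 1 only, at ranks 14477 and 16208.

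Of the genes of eIF5A, a factor that keeps elongation going at difficult sequences, iff-2 was bound and iff-1 was not. The signal of iff-2 was 130.23 in the pooled list (rank 181), 55.50 in replicate 1 (rank 202) and 68.92 in replicate 2 (rank 255). That of iff-1 was 25.17 in the pooled list (rank 16950) and 29.08 in replicate 2 (rank 2925), with no region in replicate 1. The iff-2 region, at chrII:8561222-8561651, lay between genes with its summit 70 bp upstream of the start. The part of its summit window before the start, chrII:8561368-8561537 on the minus strand, is shown for its TGCGTA string, in capitals:

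iff-2: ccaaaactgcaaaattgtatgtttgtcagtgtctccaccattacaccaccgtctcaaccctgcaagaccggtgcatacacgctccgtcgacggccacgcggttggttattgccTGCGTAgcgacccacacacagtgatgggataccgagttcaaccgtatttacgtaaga

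The 6 elongation factor genes included 2 bound ones (33.3%), against 2.75% of all genes. A pooled region was listed for 5 (83.3%), against 41.1%, with a median signal of 77.1 among those. The gene eef-1A.1, for the factor that delivers charged tRNAs, had 115.85 in the pooled list (rank 256), 59.44 in replicate 1 (rank 164) and 54.81 in replicate 2 (rank 475). Its region, at chrIII:6971845-6972274, lay between genes with the summit 348 bp upstream. The paralog eef-1A.2 had 66.74 (rank 1154), 20.86 (rank 5002) and 41.81 (rank 993). The first of the paralogs was thus the higher in each of the 3 lists. Its pooled summit was, however, nearer to the start of rfc-4 (193 bp), whereas no other gene shared the eef-1A.2 region. The gene eef-1G, for a subunit of the exchange factor that recharges eEF1A, had 116.19 in the pooled list (rank 254), 47.78 in replicate 1 (rank 322) and 66.38 in replicate 2 (rank 281). Its region, at chrV:10965414-10965843, lay between genes with its summit 90 bp from the starts of both eef-1G and the oppositely transcribed ctf-4. The stretch between the annotated ends of both genes within the summit window, chrV:10965540-10965718 on the plus strand, holds TGCGTA at 2 places, in capitals:

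eef-1G: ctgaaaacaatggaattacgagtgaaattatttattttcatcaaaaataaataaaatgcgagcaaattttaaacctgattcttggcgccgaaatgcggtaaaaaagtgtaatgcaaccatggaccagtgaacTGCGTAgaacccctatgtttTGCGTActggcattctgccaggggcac

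Just below the limit stood eef-2, for the factor that moves the ribosome along, with 77.12 in the pooled list (rank 782), 35.36 in replicate 1 (rank 846) and 41.08 in replicate 2 (rank 1042). The exchange factor gene eef-1B.1 had 60.64 in the pooled list (rank 1514), 39.96 in replicate 1 (rank 599) and 22.86 in replicate 2 (rank 6248). Replicate 1 alone thus placed eef-1B.1 in its top set, and the summit lay in an intron of the neighbouring aco-2, 165 bp from a start of that gene and 620 bp upstream of eef-1B.1. The gene eef-1B.2 had no pooled region.

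The 31 synthetase genes held 2 bound members (6.45%), against 2.75% of all genes, and 18 had a pooled region (58.1%), against 41.1%. Of the bound genes 1 was among the 20 whose names end in ars-1 (5%), close to the share of all genes, and 1 among the 11 that end in ars-2 (9.09%). The ending does not give the compartment of every enzyme: by their RefSeq product names, aars-1 encodes the mitochondrial and aars-2 the cytoplasmic alanyl-tRNA synthetase. The bound ars-1 gene was mars-1, for methionyl-tRNA synthetase, with 117.31 in the pooled list (rank 244), 43.03 in replicate 1 (rank 470) and 78.76 in replicate 2 (rank 170). Its region, at chrIV:11635576-11636005, lay between genes. Its summit was 304 bp upstream of the start in the pooled list, 481 bp upstream in replicate 1 and 349 bp upstream in replicate 2, the widest such spread among the bound genes.

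The gene kars-1 held rank 670 in the pooled list, the first place outside the reproducible list, with a signal of 82.00 and a q-value of 0.00672. In the replicates it had 39.75 (rank 609) and 55.40 (rank 459), inside the top set of each. The genes aars-1 for alanine, with 63.29 in the pooled list (rank 1342), and tars-1 for threonine, with 56.21 (rank 1895), followed. The pooled tars-1 summit lay in an intron of tars-1 and kel-1, 390 bp upstream of a start inside tars-1 and only 145 bp from a start of kel-1. At tars-1 the pooled region and that of replicate 1 (rank 819) had summits near each other, whereas the strongest region of replicate 2 (rank 7697) was another one, with summits up to 1256 bp apart. After them came cars-1 for cysteine (52.65), iars-1 for isoleucine (43.34), sars-1 for serine (38.74), lars-1 for leucine (37.32), qars-1 for glutamine (33.91), hars-1 for histidine (28.77), fars-1 for phenylalanine (28.46), gars-1 for glycine (24.71) and rars-1 for arginine (20.54).

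Of the ars-1 genes ears-1, nars-1, vars-1 and wars-1 had no region in any list, and dars-1, pars-1 and yars-1 had none in the pooled list. Of the 11 ars-2 genes 5 had a pooled region (45.5%), against 41.1% of all genes. Far below ears-2 stood yars-2 for tyrosine with 55.97 (rank 1922), sars-2 with 28.58, aars-2 with 27.93 and pars-2 with 25.19. The genes dars-2, fars-2, lars-2 and rars-2 had no region in any list, and iars-2 and nars-2 had weak ones in replicate 1 only. Genes for the same amino acid could stand far apart: ears-2 held rank 23 whereas ears-1 had no region, and yars-2 had a pooled region whereas yars-1 had none.

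**Figure D2:**
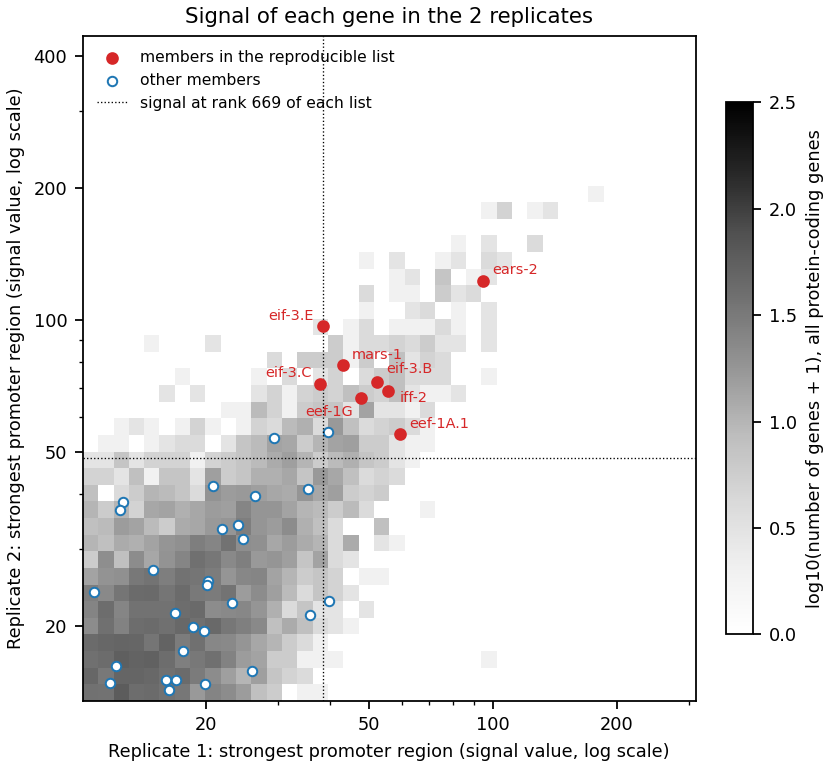
Strongest promoter region of each gene in replicate 1 (horizontal axis) and replicate 2 (vertical axis), as the authors' signal values on log scales. Points are the 36 translation genes with a region in both lists, red where bound, and the grey squares count all protein-coding genes with a region in both. The bound genes stand at the upper right, and eif-3.C lies just left of the dotted line that ends the top set of replicate 1.

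A region was listed in both replicates for 36 of the 70 genes, in replicate 1 only for 8, in replicate 2 only for 11 and in neither for 15. Of all 19973 protein-coding genes, 5167 had one in both, 3006 in replicate 1 only, 2255 in replicate 2 only and 9545 in neither. Over the 36 genes the Spearman coefficient between the replicates' signals was 0.705, and over the 5167 protein-coding genes with a region in both it was 0.538. These coefficients are descriptions across genes, which share the 2 libraries, and they say nothing of how samples would vary. A gene's strongest region need not be the same one in both: the summits were within 100 bp of each other for 20 of the 36 genes, a distance chosen after the values were seen. The share of all genes at that distance is not given here, so this count does not set the translation genes apart. In all 56 of the 70 genes had a region in at least 1 of the 3 lists and 14 had none, with no such count over all genes given here.

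Pooled regions with a q-value of 0.01 or less covered 12 translation genes (17.1%, exact 95% interval 9.18 to 28.0), against 4.67% of all genes. The 4 genes beyond the bound 8 were kars-1, eif-3.I, eef-2 and eef-1A.2. With this limit replicate 1 gave 12 genes (17.1%), against 3.55% of all genes, and replicate 2 gave 15 (21.4%), against 4.88%. Set beside the pooled 12, replicate 1 added tars-1 and eef-1B.1 and lacked eif-3.I and eef-1A.2, and replicate 2 added aars-1, ife-4 and iars-1. The difference between the translation genes and all genes was of the same direction in each list and under both limits. The pooled list was made from both replicates, and the limits cut the same lists, so these counts are not independent of each other.

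**Figure D3:**
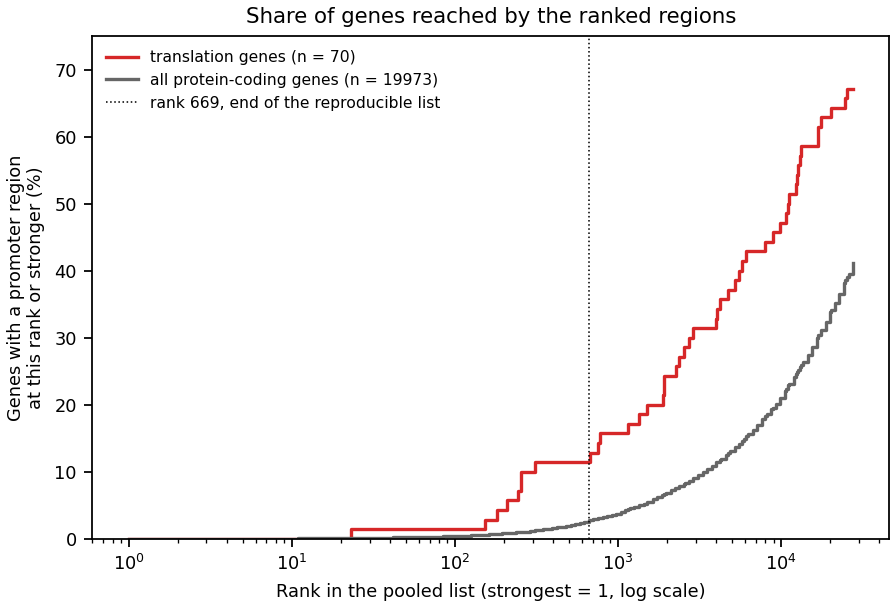
Share of genes (vertical axis, percent) with a promoter region at a given rank or stronger in the pooled list (horizontal axis, log scale), for the 70 translation genes in red and all protein-coding genes in grey. At the dotted line, the end of the reproducible list, the red line stands at 11.4% and the grey at 2.75%, and at the end of the list at 67.1% and 41.1%.

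Of the 8 summits at bound translation genes 7 were upstream of the start (87.5%), against 96.2% of the 550 bound genes of the genome. Likewise 7 lay between genes (87.5%), against 82.7%, and ears-2 was the exception in both counts. These shares do not set the translation genes apart. Their distances from the nearest start of the translation gene ran from 5 to 348 bp with a median of 214 bp, against a median of 277 bp over all bound genes. Over the 47 translation genes with a pooled region 45 summits were upstream (95.7%), against 84.2% over all genes with a region, at a median distance of 248 bp, against 266 bp. Upstream means before the nearest annotated start, which can lie inside the gene. The summits of eif-3.I, gars-1, qars-1, tars-1 and yars-2 were counted as upstream although they lay within their own genes. Most of the promoter window is upstream of the start. In worms many annotated starts are sites of trans-splicing, so the distance to the place where transcription begins can differ.

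**Figure D4:**
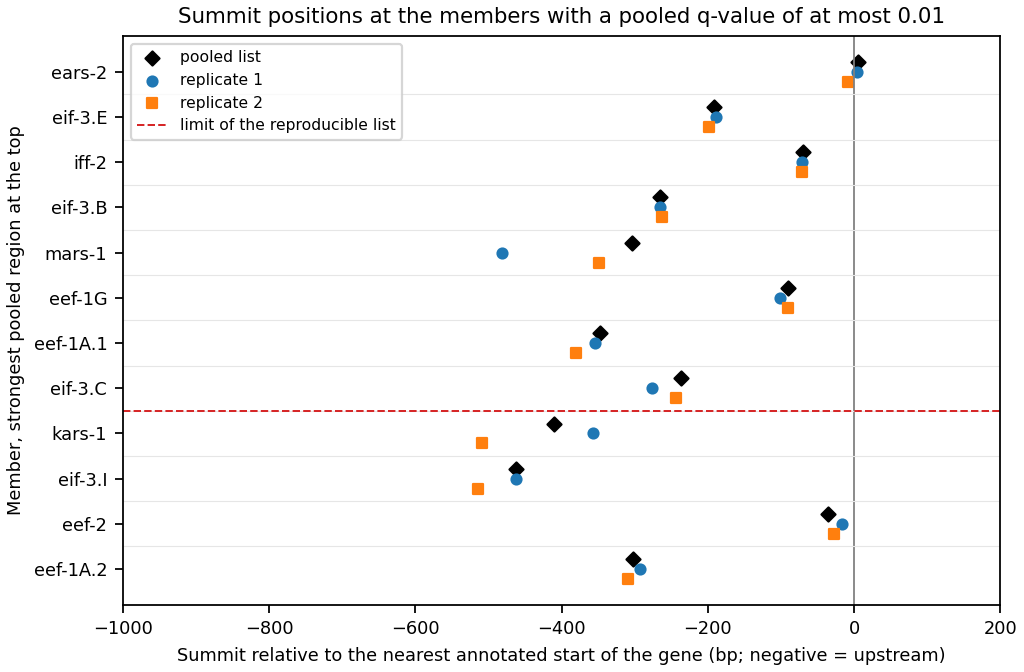
Position of the summit relative to the nearest annotated start (horizontal axis, bp, negative upstream) for the 12 translation genes with a pooled q-value of at most 0.01, from the strongest at the top. Diamonds are the pooled list, circles replicate 1 and squares replicate 2, and the dashed line marks the end of the reproducible list. The summits of iff-2, eif-3.B and ears-2 nearly coincide in the 3 lists, and those of mars-1 lie 177 bp apart at most.

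The count of bound regions shared with a neighbouring gene depended on the promoter width. With the window used throughout, the summit also lay in the promoter of another protein-coding gene at 6 of the 8 translation genes (75%), against 53.8% of all bound genes. With a promoter of 500 bp upstream and 100 bp downstream it was 3 of the 8. The share of all bound genes at that width is not given here, so the narrow count has nothing to be set against. In the window used throughout, the neighbours beside uncp-18 and ctf-4 were rfc-4 at eef-1A.1, B0511.17 at eif-3.E, F54C9.14 at iff-2 and F58B3.6 at mars-1. At eef-1A.1 the other gene was the nearer one: the summit lay 348 bp from the start of eef-1A.1 and 193 bp from that of rfc-4, a subunit gene of the clamp loader of DNA replication. For B0511.17, F54C9.14 and F58B3.6 the summit was 557, 865 and 857 bp away. The regions of eif-3.B and eif-3.C were in no other promoter. Which gene of a shared promoter a region acts on was not tested.

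Genes of tRNA, rRNA and the small nuclear and nucleolar RNAs were more than 200 bp away from all 8 bound summits. Of all reproducible regions, whether in a promoter of a protein-coding gene or not, 133 (19.9%) lay within that distance of one. Without such regions the bound share of all protein-coding genes was 2.51% instead of 2.75%. The distance from small RNA genes thus does not set the 8 bound genes apart. The nearest such gene was a snoRNA gene 665 bp from the iff-2 summit. Promoters of genes with several annotated starts cover more sequence: the promoter windows averaged 1542 bp for translation genes and 1453 bp for all genes, with a median of 1201 bp in both. Among the 36 translation genes with 1 annotated start 4 were bound (11.1%), against 2.16% of all genes with 1 start.

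The pattern TGATAAG was within 100 bp of the summit at 0 of the 8 bound translation genes (exact upper limit 36.9%), against 10.0% of all reproducible regions. The search covered both strands. Among the 47 translation genes with a pooled region 1 held it (2.13%), that of cars-1, against 7.88% of the strongest regions of all genes. The shorter TGATAA, which is part of TGATAAG, was at 1 of the 8, eif-3.E (12.5%), against 19.0% of the reproducible regions. The E-box CACGTG, the repeat GAGAGAGA, the FOXO site GTAAACA and the heat shock element TTCNNGAA were at 0 of the 8, against 7.03%, 12.1%, 2.84% and 8.52% of the reproducible regions. So 7 of the 8 windows held none of the 6 patterns. The share of all reproducible regions that hold none is not given here, so this count does not set the translation genes apart. With 8 windows, shares of this size can be missed, and a window with no match says only that these letters are not in it.

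The string TGCGTA was noticed in these windows after they had been seen. It was at 3 of the 8 bound genes (37.5%), namely eif-3.B, iff-2 and eef-1G, against 9.12% of all reproducible regions. Among the 47 translation genes with a pooled region it was at 6 (12.8%), against 6.29% of the strongest regions of all genes. The other 3 were eef-1A.2, eif-2Balpha and eif-3.I. Because the string was picked from these windows, its share there is a description only, and whether a protein binds it was not tested. The G and C content of the windows had a median of 41.5% at the 8 bound genes and 45.8% at all reproducible regions, in promoters or not. It was 38.8% at the 47 translation genes with a pooled region and 39.3% at the strongest promoter regions of all genes.

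Other genes of translation and its control, a list of 27 made from knowledge of the pathway, held 25 annotated symbols. Of these 2 were bound (8%), and 20 had a pooled region (80%), against 2.75% and 41.1% of all genes. The bound ones were drr-2, a relative of eIF4H that helps the helicase eIF4A, and pab-2, for a poly(A)-binding protein. The drr-2 region was shared, with its summit 170 bp from the start of drr-2 and 176 bp from that of set-16. For drr-2 the signal was 120.5 in the pooled list (rank 226), 37.45 in replicate 1 (rank 731) and 82.04 in replicate 2 (rank 154). For pab-2 it was 119.67 (rank 233), 34.70 (rank 908) and 83.40 (rank 145). Both were in the top set of replicate 2 but not in that of replicate 1, as was eif-3.C. Both windows held TGCGTA, against 9.12% of all reproducible regions, and no other listed gene with a pooled region held it. The string had been picked from the windows of the bound translation genes, so this too is a description only.

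With a pooled q-value of at most 0.01 the mitochondrial elongation factor gene gfm-1 (77.31), the release factor gene erfa-3 (74.77) and atf-4 (69.86), for a factor that acts when eIF2 is phosphorylated, were added. The helicase gene inf-1 had 38.67, and the second poly(A)-binding protein gene pab-1 had 42.22. The eIF2 kinase genes pek-1 and gcn-2 had 45.75 and 30.39. The TOR kinase gene let-363, its partner gene daf-15 and the S6 kinase gene rsks-1 had no region in any list.

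Set beside the cytosolic ribosomal protein genes, the other large gene family of the translation machinery, the translation factors and synthetases had the smaller share of bound promoters. These were 8 of 70 (11.4%) against 17 of 78 genes named rpl- or rps- (21.8%), and a pooled region was present at 67.1% against 89.7%. The median pooled signal, with genes that lack a region set to 0, was 29.95 against 42.21. No test of this difference was made.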

How the data were processed

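PQM-1 ChIP-seq was done on 2 biological replicates from separate biosamples, per the labels. The authors called regions in each replicate and in the pool, and derived from these 3 lists a reproducible one (irreproducible discovery rate), according to the README text. The 4 lists in build ce11 were used; the ce10 lists were not used here. Control alignments entered the calls, per the README text, and are not analysed here. Names of the aligner, the peak caller and the reproducibility threshold: not given in the sources used here. The deposited signal of a region is the authors' peak signal value. The deposited −log10 q-value is the authors' false discovery rate. Read counts were not part of the lists, so depth is unknown and intervals cover counting error only.

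Starts came from Ensembl release 115 for WBcel235, and sequence from the RefSeq genome of that assembly, which corresponds to ce11; 0 regions lay beyond a chromosome end. A region was assigned to each gene whose promoter held its summit. The strongest region was chosen in each list separately, so it can be a different region in each. Small RNA genes were taken with 200 bp to each side, and patterns were searched in windows of 201 bp. Printed sequences leave out annotated exons. Intervals are exact binomial (Clopper-Pearson). Alternatives covered promoter width, starts, nearest genes, small RNA genes, thresholds, window widths and each replicate alone. The genes, the further list and the patterns were chosen with earlier results of these data known, and TGCGTA and the genes with 1 start after seeing the data. Named genes were all bound ones with the genes sharing their regions, up to 6 strongest of each role, those in the top set of 1 replicate only, those with no region in a list, bound genes of the further list, and pqm-1. Other genes named, among them egl-45 and the remaining members of a role, were added after their values were seen. Assignment and pattern search were tested on simulated data under Python 3.11.15 (scipy 1.17.1, pandas 2.3.3, numpy 2.4.6; figures with matplotlib 3.10.9).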

Additional observations from a re-analysis of the deposited data

How the results depend on the processing

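The count of 8 bound translation genes was 8 with the promoter narrowed to 500 bp upstream and 100 bp downstream, 9 with 2000 bp and 500 bp (ife-3 added), 8 with gene-level starts, 8 without regions beside small RNA genes and 8 among the stronger 50% of the regions. It was 7 with each summit given to the nearest start only (without eef-1A.1). Without replicate 1 it was 10 and without replicate 2 it was 9. Over the same alternatives the share of all genes ran from 1.33% to 3.67%. With 1 annotated start, a choice made after seeing the data, 4 of 36 were bound. The 12 genes at a q-value of at most 0.01 became 11 to 15, while the share of all genes ran from 3.49% to 6.37%. At 0.05 there were 18, against 7.86% of all genes, and at 0.001 no pooled region was left. The median signal was 24.9 to 35.6 over these promoter, start and neighbour choices, 43.34 without genes that lack a region, and 13.96 to 18.74 in the single replicates' lists, whose scale differs. The regions shared with another gene were 3 with the narrow promoter and 5 to 7 otherwise, with no share of all bound genes given for these alternatives. TGATAAG was at 0 bound genes in each alternative, and TGCGTA, chosen after seeing the data, at 3. No paired analysis was possible because the study has 1 group. Depth is unknown, so whether the weak regions of 1 replicate reflect depth was not tested.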
